A study of Mus musculus with 12 samples.

Results

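Some transcript clusters of the array, the groups of probes that are read out together as one value, are annotated with more than one gene, and a table with one gene per value leaves them out. The 1810 clusters described here are all those whose platform annotation names 2 or more different gene symbols, of 41345 clusters with a deposited value. A further 23525 clusters name 1 gene and 16010 name none. In 4 of the 1814 entries that list several names, the same symbol is listed again (Ttc6, Olfr1434, C330026H20Rik and Gm14636), and these were counted as clusters of 1 gene. The choice used the annotation only, not the measured values. Genes that share a cluster are joined here by a slash, and its value cannot be divided among them.

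The cells were E14, a mouse embryonic stem cell line, transduced either with a control shRNA (shCT) or with an shRNA against LOXL2 (shLOXL2). Each construct was profiled without RA at day 0 and with RA at day 1, giving the groups shCT_0d, shCT_1d, shLOXL2_0d and shLOXL2_1d with 3 arrays in each. RA is read here as retinoic acid, which the labels do not spell out. No group had a day of culture without RA, so RA and time in culture cannot be told apart, and 1 shRNA stands for the knockdown. The labels do not say whether the arrays of 1 group stem from separate cultures. The p-values therefore measure only the spread between arrays within groups, pooled over the 4 groups, and that spread may be technical. In RNA of a whole culture, fewer cells of a type and less RNA per cell cannot be told apart.

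LOXL2 is a lysyl oxidase that acts outside the cell on collagen and, in the nucleus, on chromatin proteins. Retinoic acid binds nuclear receptors that switch on Hox genes and start neural differentiation of embryonic stem cells. Genes share a cluster for different reasons: a host gene and the microRNA inside it lie on the same transcript, neighbours can overlap, and members of a gene family can be so alike that probes match several copies.

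The 1810 shared clusters named 2722 symbols, of which 925 also had a cluster of their own and 1797 had none. There were 1137 clusters with 2 symbols, 240 with 3 and 433 with 4 or more, and the longest list held 20 symbols. Genes of 579 clusters overlapped in the RefSeq annotation, those of 305 were neighbours at most 50000 bases apart, those of 662 lay farther apart on the same chromosome, and those of 200 were on different chromosomes. The remaining 64 clusters had fewer than 2 genes that could be placed. Some clusters carried the same values on all 12 arrays: 297 clusters fell into 105 such groups, which left 1618 distinct profiles. The largest group was 16 clusters of Snord115 and Snord116 genes, small nucleolar RNAs of the imprinted Snrpn region. On single arrays the log2 signal of the shared clusters ran from 1.23 to 13.3. By their means, 41.0% of them lay below the median cluster at 4.62, against 41.5% of the clusters of 1 gene. Of the 84 clusters of odour and pheromone receptors, 96.4% lay below it.

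Median log2 signals of the 12 arrays ran from 4.58 to 4.68. All 12 embryonic stem cell markers lay above the median cluster, as did 4 of 7 matched feeder fibroblast markers, 6 of 6 primitive endoderm markers and 5 of 6 trophectoderm markers. The log2 of the summed signal of the stem cell markers was 13.4 in shCT_0d, 13 in shCT_1d, 13.4 in shLOXL2_0d and 12.9 in shLOXL2_1d. That of the primitive endoderm markers was 8.94, 9.57, 8.59 and 9.66 in the same order. That of the feeder markers was 7.38, 7.37, 7.37 and 7.20, and that of the trophectoderm markers 8.02, 8.22, 8.05 and 8.17. The part of these cell types in the RA results was not tested. Within groups, 1 axis held 45.5% of the variance between arrays, and 4 arrays lay high on it: replicate 3 of both shCT groups and replicate 1 of both shLOXL2 groups.

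The microRNAs in the clusters that fell with RA are shown first, because several of them share a seed, bases 2 to 8 of the mature RNA, which pairs with target messages. The 85 shared clusters that passed the test on average over both constructs named 26 microRNA genes, and RefSeq (GRCm38.p6) gave 40 mature sequences for 24 of them. The capitals mark the seed, and each sequence is written 5′ to 3′. For Mir292 of the miR-290 cluster only a 5p arm was found, so its 3p arm is not shown. The 3p arms found for that cluster on chromosome 7 and the 5p arm of miR-106a on the X chromosome read as follows.
mmu-miR-291a-3p: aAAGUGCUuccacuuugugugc
mmu-miR-294-3p: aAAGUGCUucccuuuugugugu
mmu-miR-295-3p: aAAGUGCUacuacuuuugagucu
mmu-miR-291b-3p: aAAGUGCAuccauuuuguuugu
mmu-miR-106a-5p: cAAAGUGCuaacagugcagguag
mmu-miR-293-3p: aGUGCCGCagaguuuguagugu
The first 3 have the same seed, AAGUGCU. The seeds of miR-291b-3p, AAGUGCA, and of miR-106a-5p, AAAGUGC, hold the run AAGUGC as well, and that of miR-293-3p, GUGCCGC, does not. On the plus strand, miR-291a-3p lies at chr7:3218968-3218989 and miR-295-3p at chr7:3220815-3220837. On the minus strand, miR-106a-5p lies at chrX:52742541-52742563.

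The second set comes from the imprinted region on chromosome 12 that holds Meg3, Rian, Mirg and Rtl1, where 7 of 12 shared clusters fell on average with RA. No seed among the 7 mature sequences shown was found in another of them.
mmu-miR-485-3p: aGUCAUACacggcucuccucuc
mmu-miR-432: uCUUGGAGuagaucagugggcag
mmu-miR-434-3p: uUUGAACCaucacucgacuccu
mmu-miR-770-5p: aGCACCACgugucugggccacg
mmu-miR-369-3p: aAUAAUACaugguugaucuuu
mmu-miR-410-3p: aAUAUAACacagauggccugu
mmu-miR-412-3p: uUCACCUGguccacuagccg
All 7 lie on the plus strand, from miR-770-5p at chr12:109563710-109563731 to miR-410-3p at chr12:109743764-109743784. The array probes were not made for mature microRNAs alone: a cluster that names a host RNA and a microRNA is read as both, and none of the values below is a level of a mature microRNA.

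With RA on average over both constructs, 43 shared clusters rose and 42 fell (limma on the deposited log2 values, Benjamini-Hochberg adjusted over all 41345 clusters, threshold 0.05). That is 4.70% of the shared clusters, beside 4.68% of all clusters and 6.81% of the clusters of 1 gene. Over all clusters 2.42% rose and 2.27% fell, and the counts per gene list below are to be read beside these shares. The 85 clusters held 76 sets of genes and 81 distinct profiles, and all 85 moved the same way in both constructs. Only 7 of them changed by more than 1 log2 unit. In 76 of the 85 (89.4%), the arrays with and without RA were separate in both constructs, beside 86.6% of all 1937 called clusters; the test itself favours such clusters. The median change over all 1810 was -0.01. Leaving out 1 array moved the count of 85 to 44 without shCT_1d replicate 1 or shLOXL2_0d replicate 2, and to 46 without shCT_0d replicate 2. It was 47 without shCT_1d replicate 2 and 53 without shCT_1d replicate 3, shLOXL2_0d replicate 3 or shLOXL2_1d replicate 3. Leaving out other single arrays could also raise it, and the full range was 44 to 116. Without each array in turn, 38 of the 85 were called every time. Without the 4 arrays high on the axis within groups, 44 of the 85 were called again.

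In the control construct 22 shared clusters passed, 11 higher and 11 lower with RA, which is 1.22% of them beside 1.61% of all clusters (0.847% higher and 0.764% lower). In shLOXL2 cells 14 passed, 9 higher and 5 lower, 0.773% beside 1.29% of all clusters (0.733% higher and 0.559% lower). In both constructs 6 clusters rose and 3 fell, 0.497% of the shared clusters beside 0.982% of all clusters, and none was called in opposite directions. With the replicate number as a block within the construct, chosen after seeing the data, 53 passed in control cells, 43 higher and 10 lower. In shLOXL2 cells that block gave 49, 39 higher and 10 lower. Over all 41345 clusters it gave 1036 in control cells and 849 in shLOXL2 cells. The count of 22 was 9 without shCT_0d replicate 2, shCT_1d replicate 1 or shCT_1d replicate 2, and 10 without shCT_1d replicate 3. It was 11 without shCT_0d replicate 1, 12 without shCT_0d replicate 3, 13 without shLOXL2_0d replicate 2 and 14 without shLOXL2_1d replicate 2. The count of 14 was 8 without shCT_0d replicate 2, 9 without shCT_1d replicate 1, 4 without shLOXL2_0d replicate 2 and 6 without shLOXL2_0d replicate 3. Without shLOXL2_1d replicates 1, 2 and 3 it was 8, 7 and 5. Called without every array in turn were 7 of the 22 and 4 of the 14. Without the 4 arrays high on the axis within groups, 6 of the 22 and 1 of the 14 were called again.

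**Figure D1:**
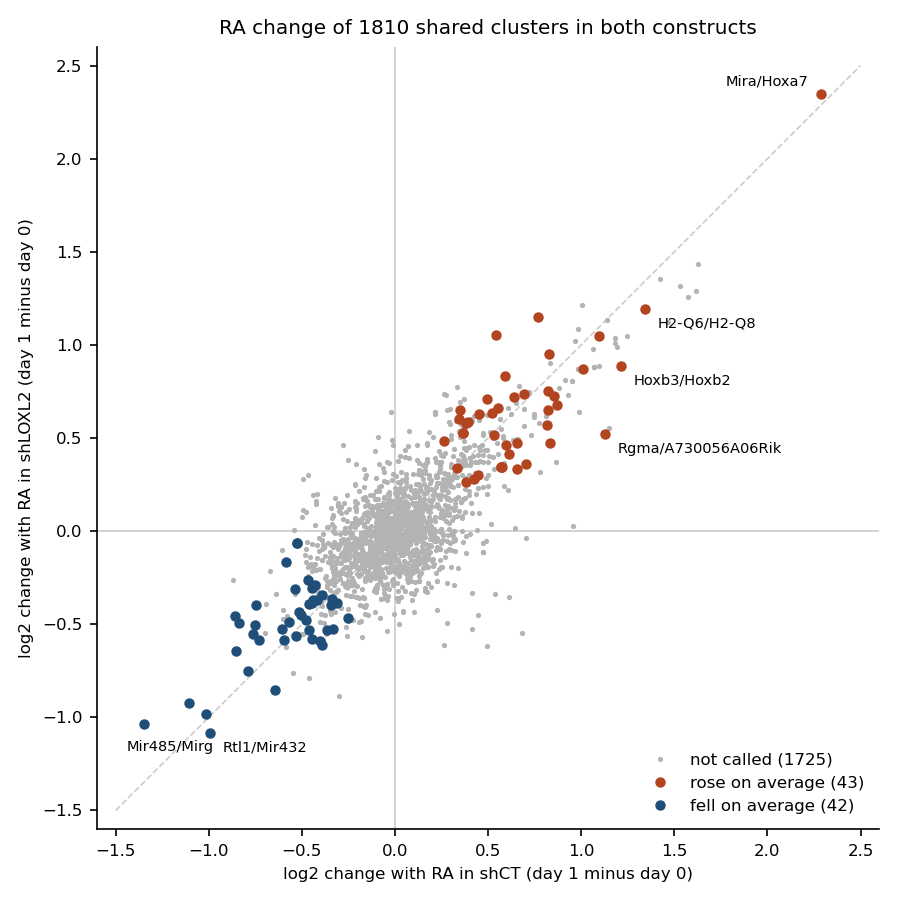
Change of log2 signal with RA in shCT cells (horizontal) against that in shLOXL2 cells (vertical) for the 1810 shared clusters, with the 43 that rose and the 42 that fell on average coloured and the dashed line at equal change. Called clusters lie in the upper right and lower left, and Mira/Hoxa7 stands apart at 2.29 and 2.35.

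The cluster of Mira and Hoxa7 (17466861) had the largest change of all shared clusters. Hoxa7 is a homeobox transcription factor of the trunk, and Mira is a noncoding RNA from beside it. In control cells its log2 signal was 4.17, 3.97 and 4.11 without RA and 6.37, 6.37 and 6.37 with RA. The shLOXL2 arrays read 4.08, 3.72 and 4.04 without RA and 6.51, 6.11 and 6.26 with RA. The groups did not overlap. The change was 2.29 ± 0.14 (SE) in control cells and 2.35 ± 0.14 in shLOXL2 cells, and the cluster was called without each array in turn and without the 4 high arrays.

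Hoxb3/Hoxb2 (17268322), a pair of hindbrain homeobox genes next to each other, rose as well. It read 4.29, 4.29 and 4.36 without RA and 5.43, 5.49 and 5.67 with RA in control cells. With the LOXL2 shRNA it read 4.76, 3.96 and 4.42 without RA and 5.26, 5.31 and 5.24 with RA. All arrays with RA lay above all without, and the change was 1.22 ± 0.17 and 0.89 ± 0.17. Hoxa3/5730446D14Rik rose by 0.52 ± 0.11 on average, from 5.0, 5.02 and 5.03 to 5.70, 5.68 and 5.51 in control cells, and did not pass in either construct alone. Of the 24 shared clusters on the homeobox list none fell on average, and the median was 0.17. Among them 5 rose on average, where 2.42% of all clusters rose. The other 2 were Zfhx2/Zfhx2os (0.74 ± 0.14), a zinc finger homeobox gene with its antisense RNA, and Zeb2/Mir5129 (0.58 ± 0.12), a repressor with homeobox-like and zinc finger domains. Of the 7 clusters that name a Hox gene, all had a positive change on average and 3 passed. Zfhx2 and its antisense partner are read as 1 value.

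**Figure D2:**
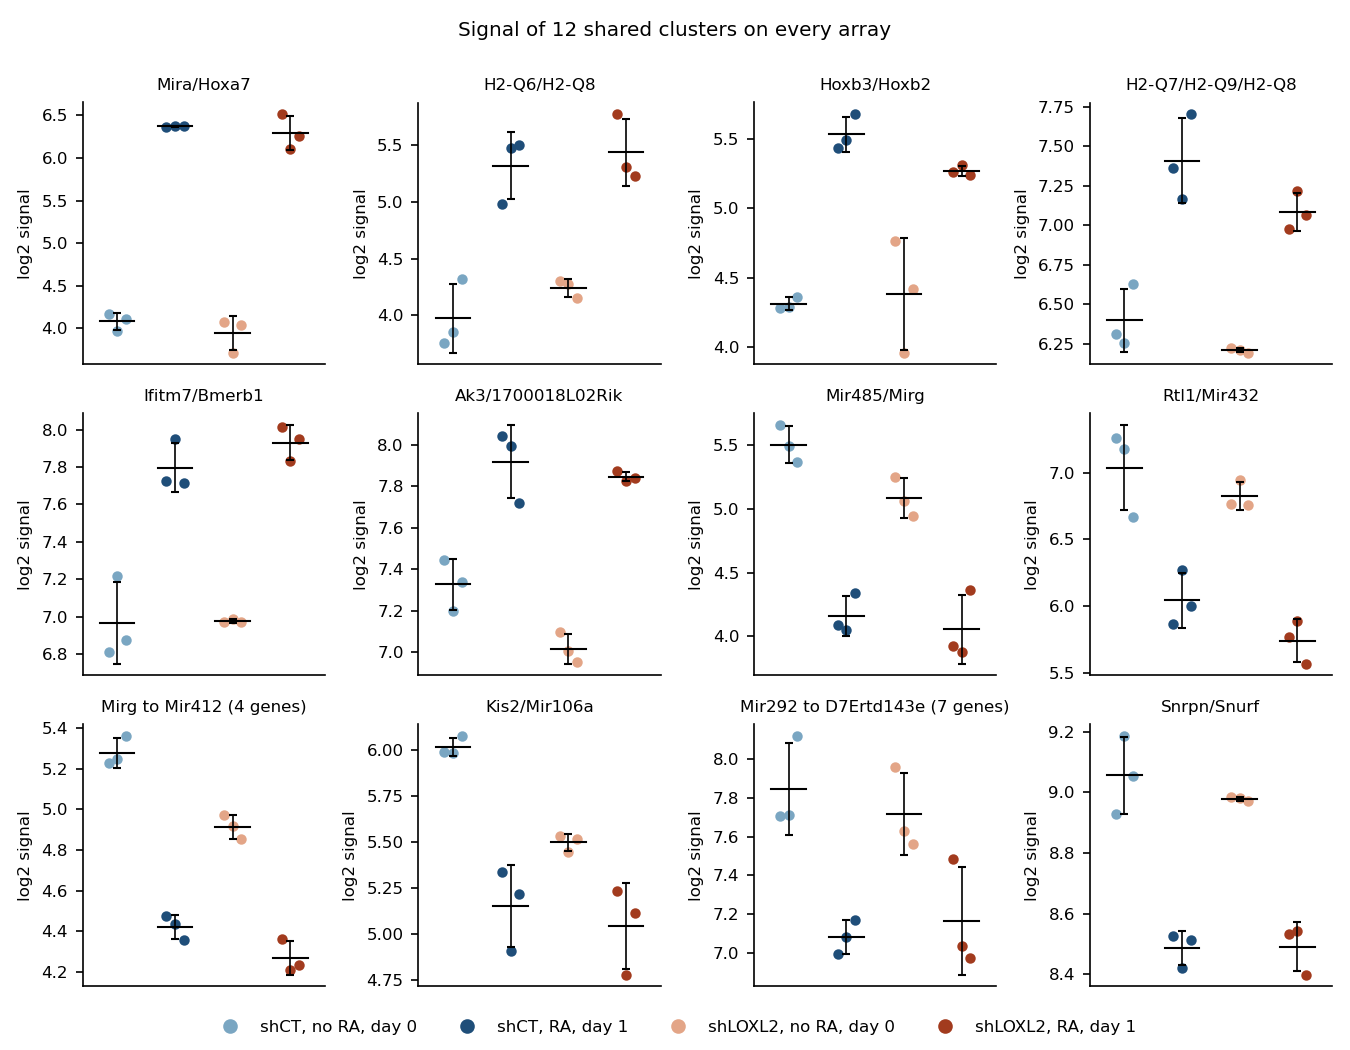
Log2 signal on each of the 12 arrays for 12 shared clusters, 6 that rose and 6 that fell with RA, by group; dots are arrays, the line is the mean of 3 arrays and the bar its SD. In Mira/Hoxa7 the arrays with RA lie between 6.11 and 6.51, above all arrays without RA.

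Of the 4 shared clusters of H2-Q histocompatibility genes, 2 rose in both constructs. The H2-Q genes encode class Ib molecules, the Qa antigens, in a row of near-identical copies, so the copy behind a signal is uncertain. H2-Q6/H2-Q8 (17337122) was at 3.75, 3.85 and 4.32 without RA and 4.98, 5.47 and 5.51 with RA in control cells. In cells with shLOXL2 the values were 4.30, 4.27 and 4.15 without RA and 5.77, 5.31 and 5.23 with RA. The groups were separate, with changes of 1.34 ± 0.20 (limma, adjusted p = 0.00645) and 1.19 ± 0.20 (adjusted p = 0.0147).

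H2-Q7/H2-Q9/H2-Q8 (17337120) rose by 1.01 ± 0.16 in control and 0.87 ± 0.16 in shLOXL2 cells. Its arrays ran from 6.26 to 6.63 without RA and from 7.16 to 7.70 with RA in control cells. A second cluster with the same genes (17337133) changed by 0.37 ± 0.12 on average and did not pass (limma, adjusted p = 0.115), and H2-Q2/H2-D1 changed by 0.18 ± 0.12. Raet1e/Raet1d, which encode stress ligands seen by natural killer cells, rose by 0.96 ± 0.16 on average. Its arrays in shLOXL2 cells were 4.63, 4.23 and 3.63 without RA and 5.43, 5.27 and 5.25 with RA. Of the 19 shared clusters of antigen receptor and histocompatibility genes, 3 rose on average and none fell, where 2.42% of all clusters rose.

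Ifitm7/Bmerb1 (17323110) joins an interferon-induced membrane protein gene and a gene named for a bMERB domain. It read 6.81, 7.22 and 6.88 without RA and 7.73, 7.95 and 7.72 with RA in control cells. In shLOXL2 cells it read 6.97, 6.99 and 6.97 without RA and 8.01, 7.83 and 7.95 with RA. The groups did not overlap, and the changes were 0.83 ± 0.13 and 0.95 ± 0.13. Another cluster with the same genes (17328326) changed by 0.44 ± 0.23 and did not pass. Ifitm7 is not on the list of interferon-response genes. Of the 11 shared clusters on that list, none rose and 1 fell: Oas1a/Oas1g, sensors of double-stranded RNA, at -0.75 ± 0.16 on average. Its control arrays were 5.04, 4.57 and 4.59 without RA and 4.33, 3.85 and 4.08 with RA.

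Ak3/1700018L02Rik, a mitochondrial adenylate kinase with a predicted gene, read 7.44, 7.20 and 7.34 without RA and 8.04, 7.99 and 7.72 with RA in control cells. The shLOXL2 arrays read 7.10, 7.0 and 6.95 without RA and 7.87, 7.83 and 7.84 with RA. The arrays were again separate in both constructs, with changes of 0.59 ± 0.12 and 0.83 ± 0.12.

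Rgma/A730056A06Rik names the repulsive guidance molecule RGMA, a co-receptor for bone morphogenetic proteins. It read 5.79, 5.77 and 5.78 without RA and 6.99, 7.12 and 6.62 with RA in control cells. With the LOXL2 shRNA it read 5.83, 5.86 and 5.85 without RA and 6.42, 6.22 and 6.47 with RA. The change was 1.13 ± 0.14 in control cells (limma, adjusted p = 0.00188) and 0.52 ± 0.14 in shLOXL2 cells (adjusted p = 0.13). The test of the difference between the constructs did not pass for this cluster or for any other shared cluster.

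Genes of copied families made up several other rises. The 3 clusters of Tmem254a, Tmem254b and Tmem254c, membrane protein genes in a repeated stretch of chromosome 14, rose on average by 0.77 ± 0.14, 0.79 ± 0.15 and 0.79 ± 0.15. The brighter arrays of 17304193 in control cells were the ones with RA, at 7.65, 7.83 and 7.40, against 6.78, 6.85 and 6.65 without. The DNA before these genes shows how alike the copies are, since this stretch of 120 bases stands before the start of each of the 3 in RefSeq (GRCm38.p6, minus strand).
Tmem254a, Tmem254b and Tmem254c: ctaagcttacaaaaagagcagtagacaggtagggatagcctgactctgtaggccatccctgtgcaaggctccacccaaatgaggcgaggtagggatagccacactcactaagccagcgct
It lies at chr14:25927673-25927792 for Tmem254a, chr14:26207042-26207161 for Tmem254b and chr14:26067426-26067545 for Tmem254c. It ends 1 base before the annotated start of Tmem254a and Tmem254c and 17 bases before that of Tmem254b. No base differs among the 3 copies.

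The Tmem181 genes, which encode a membrane protein, had 3 shared clusters, and all 3 rose on average. Tmem181b-ps/Tmem181a rose by 1.07 ± 0.22, Tmem181a/Tmem181b-ps by 0.69 ± 0.12 and Tmem181b-ps/Dynlt1f by 0.54 ± 0.12. The first read 6.32, 6.25 and 7.06 without RA and 7.59, 7.26 and 8.06 with RA in control cells, with replicate 3, one of the 4 high arrays, highest in both states. Nudt10/Nudt11, which encode near-identical inositol pyrophosphate phosphatases, rose by 0.80 ± 0.15 on average and by 1.05 ± 0.21 in shLOXL2 cells. There it read 3.59, 3.42 and 3.45 without RA and 5.04, 4.07 and 4.50 with RA. H2bc4/H2bc8/H2bc6, replication-dependent histone H2B genes, rose by 0.60 ± 0.13, the only one of the 45 shared histone clusters to pass.

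Overlapping gene pairs that rose on average included Eid1/Shc4 (0.65 ± 0.11), an inhibitor of p300 acetyltransferase and a Shc adaptor. Its control arrays were 4.83, 5.25 and 5.16 without RA and 5.90, 6.0 and 5.85 with RA. Tctn1/Hvcn1, a protein of the ciliary transition zone and a proton channel, rose by 0.61 ± 0.09, from 5.95, 6.05 and 6.13 to 6.82, 6.73 and 6.56 in shLOXL2 cells. Tnfsfm13/Tnfsf13/Tnfsf12, the joined genes of the cytokines APRIL and TWEAK, rose by 0.57 ± 0.08, from 6.56, 6.63 and 6.71 to 7.23, 7.26 and 7.38 in control cells. These 3 also passed in 1 construct alone: Eid1/Shc4 and the cytokine genes in control cells and Tctn1/Hvcn1 in shLOXL2 cells. Acsl3/Utp14b, an acyl-CoA synthetase and a nucleolar protein gene that lies inside it, rose by 0.68 ± 0.16. Tm6sf1/Hdgfl3 rose by 0.72 ± 0.14.

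The falls were led by the imprinted region on chromosome 12. Meg3, Rian and Mirg are noncoding RNAs made from the maternal copy, and Rtl1 is a retrotransposon-derived gene made from the paternal copy, with microRNAs on the strand opposite to it. Of the 12 shared clusters that name one of these genes, 7 fell on average, 4 in control cells and 3 in shLOXL2 cells, and none rose. Their median change was -0.67, against -0.01 for all shared clusters. The choice of this group followed earlier results of these data, so the counts are a description.

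Mir485/Mirg (17278858) fell most. It read 5.66, 5.49 and 5.37 without RA and 4.09, 4.05 and 4.34 with RA in control cells. In cells with shLOXL2 the values were 5.25, 5.06 and 4.94 without RA and 3.93, 3.87 and 4.36 with RA. The groups did not overlap, at -1.35 ± 0.16 (limma, adjusted p = 0.00151) and -1.03 ± 0.16 (adjusted p = 0.00889). The cluster of Mirg with Mir369, Mir410 and Mir412 read 5.23, 5.25 and 5.36 without RA and 4.47, 4.44 and 4.36 with RA in control cells, and it fell by 0.85 ± 0.11 there and by 0.64 ± 0.11 in shLOXL2 cells. Mir134/Mirg changed by -0.59 ± 0.21 on average and did not pass (limma, adjusted p = 0.16).

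Rtl1/Mir432 (17278711) read 7.26, 7.18 and 6.67 without RA and 5.86, 6.27 and 6.0 with RA in control cells. In shLOXL2 cells it read 6.77, 6.94 and 6.76 without RA and 5.77, 5.89 and 5.57 with RA. It fell by 0.99 ± 0.17 and by 1.08 ± 0.17, with separate arrays. Rtl1/Mir434 fell by 0.57 ± 0.13 on average. The other 4 clusters of Rtl1 did not pass, with changes from -0.30 to 0.15. Probes of Rtl1 and of the microRNAs opposite to it thus gave unequal changes within 1 locus.

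DQ267100/Rian read 7.98, 8.11 and 8.50 without RA and 7.05, 7.06 and 7.43 with RA in control cells, and 7.90, 7.80 and 7.62 against 7.24, 6.40 and 6.74 in shLOXL2 cells. It fell by 1.0 ± 0.15 on average (limma, adjusted p = 0.00302). Meg3/Mir1906-1/Mir1906-2 fell by 1.01 ± 0.24 (adjusted p = 0.0384) with the widest spread, its control arrays being 6.99, 7.60 and 8.28 without RA and 6.21, 6.44 and 6.90 with RA. Its highest values in each state were on replicate 3 of shCT and replicate 1 of shLOXL2, the arrays high on the axis within groups. The same was true of DQ267100/Rian, of Meg3/Mir770 and of the miR-290 cluster described below. The part of this axis in their falls was not tested. Mir1906 has 1 copy on chromosome 12 and 1 on the X chromosome, so its signal has 2 possible sources. Meg3/Mir770 fell by 0.77 ± 0.16.

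**Figure D3:**
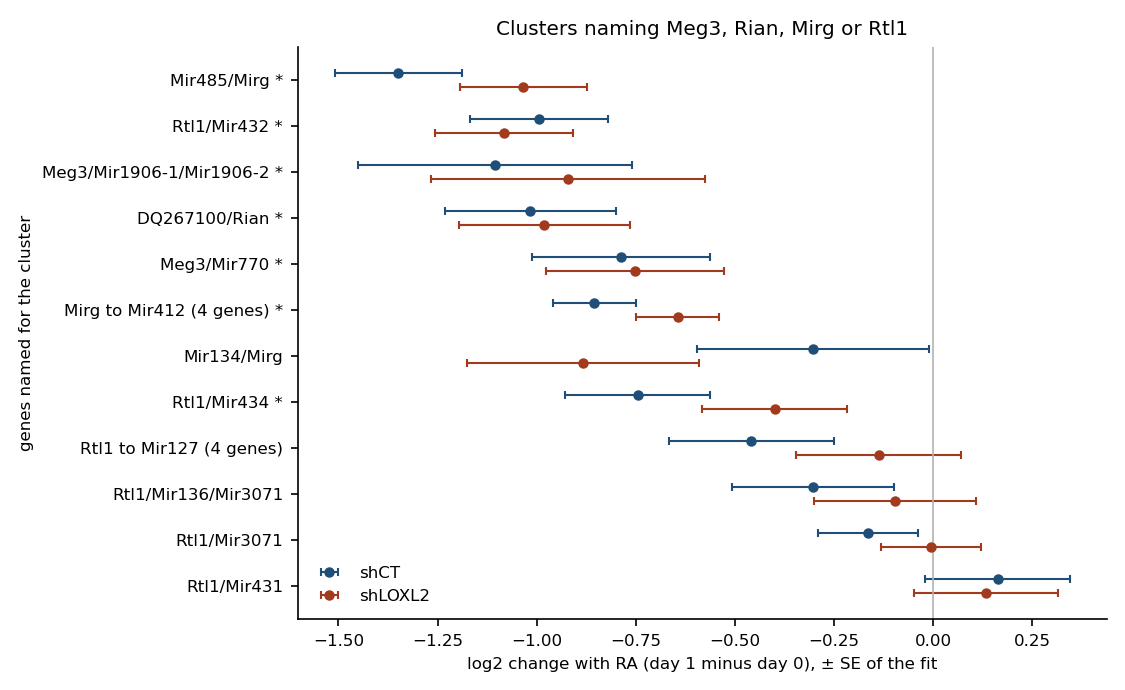
Change of log2 signal with RA, with its SE, in shCT and shLOXL2 cells for the 12 shared clusters that name Meg3, Rian, Mirg or Rtl1; a star marks a cluster that passed on average. The 7 starred clusters lie from -1.19 to -0.57 on average, and the Rtl1 clusters without a star lie nearer to 0.

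In a second imprinted locus, 1 of 2 shared clusters fell on average, and by less. Snrpn/Snurf (17547827), which make a splicing protein and the small protein encoded upstream on the same message, read 8.93, 9.18 and 9.05 without RA and 8.53, 8.42 and 8.51 with RA in control cells. The shLOXL2 arrays read 8.98, 8.98 and 8.97 without RA and 8.53, 8.54 and 8.40 with RA. The arrays were separate in both constructs, and it fell by 0.53 ± 0.08 on average. The other shared cluster of this locus changed by -0.145 on average and did not pass. The 16 clusters of Snord115 and Snord116 genes, downstream on the same imprinted chromosome, had 1 profile and a change of -0.25, which did not pass. Over the 18 shared clusters of imprinted genes, 8 fell and none rose, where 2.27% of all clusters fell. This list was drawn up after values were seen.

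Of the 5 shared clusters that name microRNAs of the miR-17 and miR-290 families, or others grouped with them such as Mir25, 2 fell on average. In control cells alone 1 of them also fell, and in shLOXL2 cells alone none did. The group was put together after values were seen, so the counts are a description. The miR-290 cluster is the best known microRNA cluster of mouse embryonic stem cells, and its shared cluster (Mir292, Mir295, Mir291a, Mir291b, Mir294, Mir293 and D7Ertd143e) read 7.71, 7.71 and 8.12 without RA and 7.0, 7.08 and 7.17 with RA in control cells. With the LOXL2 shRNA it read 7.96, 7.63 and 7.56 without RA and 7.48, 7.04 and 6.98 with RA. Each group with RA lay below the group without, and it fell by 0.66 ± 0.12 on average (limma, adjusted p = 0.0112).

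Kis2/Mir106a, whose microRNA has a seed with the same run AAGUGC, read 5.99, 5.99 and 6.07 without RA and 5.34, 4.91 and 5.22 with RA in control cells. In cells with shLOXL2 the values were 5.53, 5.45 and 5.52 without RA and 5.24, 4.78 and 5.12 with RA. It fell by 0.86 ± 0.15 in control cells (limma, adjusted p = 0.0144), changed by -0.45 ± 0.15 in shLOXL2 cells (adjusted p = 0.248) and fell by 0.66 ± 0.10 on average. The clusters Mir93/Mcm7 and Mir25/Mcm7, a replication helicase subunit and the microRNAs inside it, changed by -0.22 and -0.19 and did not pass.

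Of the 136 shared clusters with a microRNA gene, 5 rose and 11 fell on average, and their median was -0.16. Among all clusters 2.42% rose and 2.27% fell. Beside the loci above, Mir27b/Aopep fell by 0.63 ± 0.11, from 5.12, 5.11 and 5.03 to 4.33, 4.18 and 4.50 in control cells. Mir124a-1hg/Mir124a-1/Mir3078, the host of a neuronal microRNA, fell by 0.48 ± 0.10, and Pfas/Mir3062, a purine synthesis gene, fell by 0.40 ± 0.10. The 5 rises were Zeb2/Mir5129, Scd2/Mir5114 (0.53 ± 0.13), Ctdsp2/Mir26a-2/Mir546 (0.53 ± 0.11), Prmt2/Mir678 (0.49 ± 0.10) and Brsk2/Mir3104 (0.34 ± 0.08). Scd2 is a fatty acid desaturase, Ctdsp2 a phosphatase gene that hosts miR-26a, Prmt2 an arginine methyltransferase and Brsk2 a kinase of neuronal polarity.

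Small nucleolar RNAs and their host genes were the next group. Of the 63 shared clusters with such genes 3 fell and none rose, where 2.27% of all clusters fell. The 63 held 37 distinct profiles. Their median of -0.25 equals the change of the 16 Snord115 and Snord116 clusters, which share 1 profile. Snord14a/Rps13, a ribosomal protein gene with the RNA in its intron, fell by 0.50 ± 0.12, from 8.16, 7.90 and 7.65 to 7.61, 7.43 and 7.29 in control cells. Snhg16/Snord1a fell by 0.37 ± 0.09 and Snord2/Eif4a2 by 0.36 ± 0.09. Of the 58 clusters of cytosolic ribosomal protein genes 2 fell, this cluster of Rps13 and Rpl12/Gm11425 (-0.38 ± 0.08), and none rose. Of the 13 of mitochondrial ribosomal proteins 2 fell and none rose, Actl6a/Mrpl47 and Nme3/Mrps34 (-0.40 ± 0.09).

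Of the 6 shared clusters on the list of chromatin and histone-modifying genes, 1 fell on average, Acrbp/Ing4, and none rose. Several other clusters that fell were picked by the role of a gene after their values were seen, so they stand for no group. Actl6a/Mrpl47, the first a subunit of the BAF remodelling complex, read 8.81, 8.96 and 8.75 without RA and 8.27, 8.32 and 8.16 with RA in shLOXL2 cells. It fell by 0.59 ± 0.12 there (limma, adjusted p = 0.04) and changed by -0.40 ± 0.12 in control cells (adjusted p = 0.163). Acrbp/Ing4, the second a subunit of a histone acetyltransferase complex, fell by 0.52 ± 0.11 in shLOXL2 cells (limma, adjusted p = 0.0469). Bcor/2900008C10Rik, a Polycomb-linked corepressor, fell by 0.59 ± 0.11 on average, and Tbp/Pdcd2, the TATA-binding protein and a neighbour, by 0.36 ± 0.09. Pip4p1/Apex1, the second an endonuclease of base excision repair, fell by 0.51 ± 0.10. Qk/Cahm, which names the RNA-binding protein gene Qk, fell by 0.56 ± 0.14, and Rbm14/Rbm4, RNA-binding protein genes, by 0.37 ± 0.09. The 2 clusters of Rbpms2/Gm3470 fell by 0.55 ± 0.10 and 0.35 ± 0.09. Neurod1/Cerkl, the first a neurogenic transcription factor, fell by 0.66 ± 0.15 on average, and its control array 3 without RA, at 6.79, stood above the other two at 6.01 and 6.25. In clusters of their own, Qk changed by 0.10 on average, Ing4 by 0.04, Neurod1 by -0.12, Tbp by -0.16 and Pip4p1 by -0.19. None of these own clusters passed, so the falls of the shared clusters are not falls shown for these genes.

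The families of the 2-cell embryo, such as Zscan4, Usp17l and Pramel genes, gave 66 shared clusters with 52 profiles. On average 3 rose, where 2.42% of all clusters rose. All 3 were clusters of Pramel3 with Gm5128, Gm7903, AV320801 and Gm15023 (0.46 to 0.49), and 1 of these also rose in control cells. Clusters 17537787 and 17537794 among them had the same values, so they are not separate measurements. The median over the 66 was 0.57, and 63 had a change above 0, against 848 of all 1810. The 2 Zscan4 clusters changed by 1.09 ± 0.35 and 1.15 ± 0.38 and did not pass (limma, adjusted p = 0.124 and 0.135). The brighter of them read 8.32, 8.96 and 9.32 in shCT_0d, 9.95, 9.97 and 10.25 in shCT_1d, 10.49, 8.81 and 8.75 in shLOXL2_0d and 11.33, 9.88 and 9.82 in shLOXL2_1d. Replicate 1 of both shLOXL2 groups, high on the axis within groups, thus stood over 1 log2 unit above its fellows. The mean over the 66 clusters was 5.70 on that array without RA, against 4.95 and 4.94 on the other two, and 6.45 with RA, against 5.46 and 5.41. The part of this axis in the RA result was not tested.

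Other lists held few calls on average, where 2.42% of all clusters rose and 2.27% fell. Of the 84 clusters of odour and pheromone receptors 1 rose, Vmn2r45/Zfp772/Gm45351, which has the same values as Zfp772/Gm45351, and these were the 2 rises among 56 clusters of Zfp genes. Of the 115 clusters of multi-copy families of the X and Y chromosomes 2 rose, both of the Ott and Luzp4 family. Of 20 clusters of mitochondrial energy metabolism 2 fell, Uqcr10/Gm6293 (-0.48 ± 0.11) and Tomm5/Gm8069 (-0.42 ± 0.10). None passed among 3 protocadherin clusters, 6 of cell cycle genes, 6 of signalling genes, and 1 each of retinoid and pluripotency genes. Gm20871/Gm20736, predicted genes with 2 clusters of equal values, fell by 0.53 ± 0.10 in control cells and changed by -0.06 ± 0.10 in shLOXL2 cells (limma, adjusted p = 0.913).

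Calls on average were also counted by how the genes of a cluster lie to each other. Of the 579 clusters with overlapping genes 18 rose and 21 fell (6.74%), beside 4.68% of all clusters and 6.81% of those of 1 gene. Of the 64 with fewer than 2 genes placed 2 rose and 4 fell (9.38%). Of the 305 with neighbours 5 rose and 11 fell, of the 662 with genes farther apart on the same chromosome 18 rose and 2 fell, and of the 200 with genes on different chromosomes none rose and 4 fell. Clusters of a gene with a microRNA were called most often by makeup, 15 of 77 (19.5%), 10 of them lower, and those of a gene with a small nucleolar or nuclear RNA next, 3 of 24 (12.5%), all lower. Among clusters of 2 or more characterised genes, 28 of 812 rose and 17 fell (5.54%). Among clusters of predicted genes and small RNAs only, 4 of 298 fell and none rose (1.34%). These shares are a description, since clusters of 1 locus are not independent of each other. Signal differed as well: 33.2% of clusters with overlapping genes lay below the median cluster, against 59.7% of those farther apart on the same chromosome. Of clusters of 1 gene, 10.7% were called at or above the median cluster and 1.41% below it.

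For 40 of the 85 called clusters, at least 1 of the genes also had a cluster of its own, in 63 pairs of shared and own clusters. The own cluster moved in the same direction in 56 of the 63 pairs and passed in the same direction in 8. The pairs involve 46 genes and are not independent. Own clusters of the Ott and Luzp4 family, Pramel3, AV320801, Zfp772 and Gm45351 each stand in more than 1 pair. In none did it pass in the opposite direction. The change of the shared cluster was the larger in size in 51 pairs, which the choice of called shared clusters favours. Hoxb2 alone rose by 2.57 and Hoxb3 alone by 1.35, both above the 1.05 of Hoxb3/Hoxb2. Hoxa7 alone rose by 1.03, below the 2.32 of Mira/Hoxa7. Hoxa3 alone rose by 1.44, above 0.52 for Hoxa3/5730446D14Rik. Rian alone fell by 1.03, beside 1.0 for DQ267100/Rian. Meg3 alone changed by -0.34 ± 0.13 and did not pass (limma, adjusted p = 0.185), beside falls of 0.77 and 1.01 in its shared clusters. Oas1g alone fell by 1.20, against 0.75 for Oas1a/Oas1g.

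**Figure D4:**
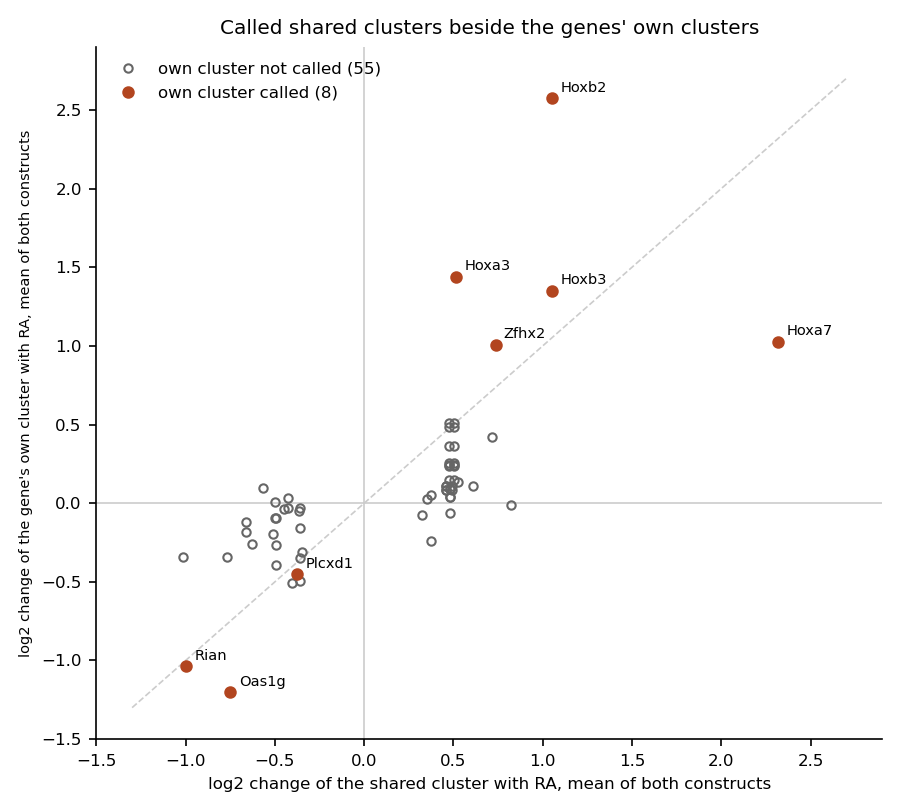
Average change of log2 signal with RA of 63 pairs: the called shared cluster (horizontal) and the cluster of 1 of its genes alone (vertical), with the 8 own clusters that passed coloured and the dashed line at equal change. Hoxb2 and Hoxa3 lie above the line, Hoxa7 below it, and most own clusters that did not pass lie near 0.

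In the other direction, 83 shared clusters did not pass although a gene they name passed in a cluster of its own, in 132 pairs with 35 genes. The direction was the same in 123 of the 132. The shared change had the smaller size in 131, which the choice of the pairs nearly fixes. Mir10a/Hoxb4 changed by 0.25 (limma, adjusted p = 0.383), where Hoxb4 alone rose by 1.90 ± 0.15, and the shared cluster was dim, at a mean log2 signal of 2.49. Ergic2/Tmtc1/4732416N19Rik changed by 0.39, where Tmtc1 alone rose by 1.56 ± 0.17. Gfra1/Gm10007 changed by 0.22, where the receptor subunit gene Gfra1 alone rose by 1.13 ± 0.09.

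Between the constructs, no shared cluster passed without RA or with RA (0 and 0 calls in limma, with 77 and 76 shared clusters at an unadjusted p below 0.05). For the difference of the RA responses the count was also 0, with 40 at an unadjusted p below 0.05. On average over both RA states 1 passed, and it was the only one of all 41345 clusters (0.00242%), with 93 shared clusters at an unadjusted p below 0.05. In the same order, 924, 988, 552 and 1355 of the 23525 clusters of 1 gene had an unadjusted limma p below 0.05. Of the 16010 clusters that name no gene, 707, 699, 704 and 638 did. The only cluster that passed was Gm19399/Hmgn2 (17548012). Hmgn2 encodes a small protein that binds nucleosomes, and Gm19399 is a predicted gene. Its log2 signal was 8.06, 8.02 and 8.11 in shCT_0d and 7.49, 7.35 and 7.21 in shLOXL2_0d. With RA it was 8.49, 8.45 and 8.39 in shCT_1d and 7.60, 7.55 and 7.69 in shLOXL2_1d. Every shLOXL2 array lay below every control array of the same RA state. The difference was -0.77 ± 0.08, or 58.5% of control (limma, adjusted p = 0.0297), and the exact permutation test of the construct within RA states gave p = 0.005, two-sided, the smallest that its 400 relabellings allow. That test treats the arrays of both RA states as independent. With same-numbered arrays of a construct kept together, because their deviations were related, the exact permutation p was 0.1, the smallest that 20 relabellings allow. The call was also lost with a replicate block (limma, adjusted p = 0.144) and with a random block for construct and number (adjusted p = 0.175). The call was lost without 11 of the 12 arrays in turn: it held without shLOXL2_0d replicate 1, and the count was 0 without any other single array. Without the 4 high arrays the difference was -0.81 (adjusted p = 0.227).

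Other clusters of Hmgn2 differed from it. Hmgn2 is named in 2 more shared clusters, with the predicted genes Gm7931, Gm9525, Gm6750 and Gm6594. One of them (17510494) read 5.62, 6.17 and 6.08 in shCT_0d, 4.84, 5.16 and 4.39 in shLOXL2_0d, 6.33, 6.28 and 6.08 in shCT_1d and 5.63, 5.20 and 5.50 in shLOXL2_1d. The groups did not overlap, at -0.97 ± 0.15, but limma's adjusted p was 0.13. The exact permutation p was 0.005, two-sided, and 0.1 with numbered pairs kept together. The other (17431136) differed by 0.03 ± 0.11, and the cluster of Gm19399 alone by -0.04. These clusters therefore gave unequal differences for 1 gene name, and which copy each reads was not tested.

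**Figure D5:**
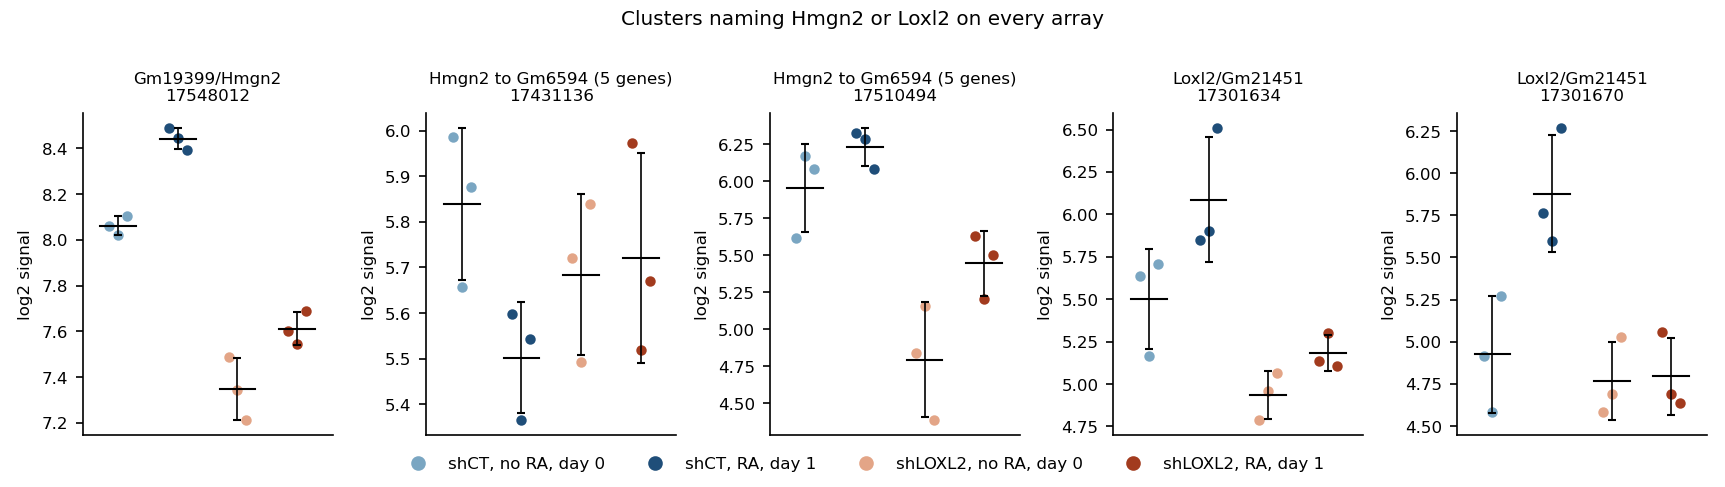
Log2 signal on each of the 12 arrays for the 3 shared clusters that name Hmgn2 and the 2 that name Loxl2, by group; dots are arrays, the line is the mean of 3 and the bar its SD. In Gm19399/Hmgn2 the shLOXL2 arrays lie from 7.21 to 7.69 and the shCT arrays from 8.02 to 8.49, while cluster 17431136 shows no such gap.

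Loxl2 itself, the target of the shRNA, is read only through clusters it shares with the predicted gene Gm21451. Cluster 17301634 read 5.64, 5.17 and 5.71 in shCT_0d and 4.79, 4.96 and 5.06 in shLOXL2_0d. With RA it read 5.85, 5.90 and 6.51 in shCT_1d and 5.14, 5.30 and 5.10 in shLOXL2_1d. The shLOXL2 arrays lay below the control arrays in both states, with a difference of -0.74 ± 0.14 (limma, adjusted p = 0.28; exact permutation p = 0.005, two-sided). Cluster 17301670 read 4.92, 4.58 and 5.27 against 4.58, 4.69 and 5.03 without RA, where the arrays overlapped. With RA it read 5.77, 5.60 and 6.27 against 5.06, 4.69 and 4.64, where they did not. Its average difference was -0.62 ± 0.16 (limma, adjusted p = 0.543; exact permutation p = 0.03, two-sided). With numbered pairs kept together, the exact permutation p was 0.1 for both Loxl2 clusters. In control cells the second cluster changed with RA by 0.95 ± 0.22, which missed the threshold (limma, adjusted p = 0.0669). The 2 clusters of Taf10, a TFIID subunit, with the overlapping kinase gene Ilk both differed by -0.07.

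Other shared clusters with a small p for the average difference did not pass. H2bc4/H2bc8/H2bc6 differed by -0.67 ± 0.13 (limma, adjusted p = 0.28), with shLOXL2 arrays of 5.35, 5.37 and 5.31 below control arrays of 6.07, 5.87 and 6.42 without RA. Rbfa/Gm19443, the first a mitochondrial ribosome-binding factor, differed by 0.41 ± 0.10, and Prmt2/Mir678 by -0.38 ± 0.10 (adjusted p = 0.543 for each).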

How the data were processed

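Per the labels' protocols, 100 ng of Trizol-extracted total RNA was labelled for each Affymetrix whole-transcript array. The authors deposited a log2 signal for every transcript cluster on every array. The submitters' processing notes name RMA, limma and R 3.1.1. The genome build of the array annotation is not given in the sources used here. Of 6384 gene entries in shared clusters, 6244 were matched to RefSeq.

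The 41345 clusters were fitted together with limma 3.58.1 (R 4.3.3), with 1 mean for each of 4 groups and 7 contrasts, and p-values were adjusted by Benjamini-Hochberg over all clusters (threshold 0.05). For single clusters, constructs were permuted within RA states (400 relabellings). The script was checked on simulated data. The number of arrays, 3 per group, limits the precision.

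Named clusters were the 12 largest rises and falls per construct among called clusters with separate arrays, all calls or the 5 smallest p for knockdown contrasts, up to 3 clusters per gene list, and all that name Loxl2 or Taf10. Other called clusters were named by role after their values were seen. The members and the 21 gene lists were chosen with earlier results of these data known.

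Same-numbered arrays of 1 construct deviated together from their group means, though unevenly. The correlations were 0.53, 0.19 and 0.21 in shLOXL2 and 0.34, 0.07 and 0.59 in shCT. Those of different constructs (-0.53 to 0.17) did not all do so. The main fit did not use the number. Alternatives were blocks on the number, array weights, filters, normalizations, a minimum fold and leaving out arrays.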

Additional observations from a re-analysis of the deposited data

Results flagged for a closer look

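In 9 of the 1810 shared clusters (0.497%, beside 0.285% of all clusters) the arrays with and without RA were separate in both constructs but in opposite directions. Of the 93 named clusters, 2 were among them. Rbfa/Gm19443 read 5.51, 5.52 and 5.62 in shCT_0d and 6.08, 6.06 and 5.76 in shCT_1d, but 6.16, 6.57 and 6.59 in shLOXL2_0d and 5.97, 6.0 and 5.78 in shLOXL2_1d. Its RA changes were 0.42 ± 0.15 and -0.52 ± 0.15, a difference of -0.94 between constructs. Lilra6/Pira1/Pira2/Gm15448/Gm14548, paired immunoglobulin-like receptor genes in a dim cluster, read 2.86, 3.0 and 2.59 in shCT_0d, 3.01, 3.18 and 3.06 in shCT_1d, 3.29, 3.89 and 3.46 in shLOXL2_0d and 2.68, 3.20 and 2.92 in shLOXL2_1d. Its RA changes were 0.26 ± 0.19 and -0.61 ± 0.19, a difference of -0.88. Neither difference passed over all clusters (limma, adjusted p = 1.0 for both).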

How the results depend on the processing

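Counts of shared clusters called are given in the order RA in shCT (22), RA in shLOXL2 (14), RA on average (85) and knockdown on average (1). A replicate block gave 12, 8, 53 and 0; a random block for construct and number gave 67, 43, 194 and 0. A replicate block within the construct, chosen after seeing the data, gave 53, 49 and 177 for RA. Array weights gave 185, 53, 279 and 9, and 8 for the knockdown without RA. Testing only clusters with a named gene gave 40, 26, 134 and 2, and testing a fold of at least 1.5 gave 1, 1, 2 and 0. Fitting only the groups compared gave 10 and 6 for the constructs. Without clusters below the median signal, RA in shLOXL2 gave 23. Counting only clusters with 2 or more characterised genes gave 11 for RA in shCT, 45 on average and 0 for the knockdown. Without the 4 arrays high on the axis, chosen after seeing the data, the counts were 13, of which 12 were higher, then 2, and 0 for the knockdown. Leaving out 1 array gave 9 to 22, 4 to 13, 44 to 116 and 0 to 1. The Loxl2 clusters ranged from -0.82 to -0.63 and from -0.71 to -0.52.

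Of the values of named clusters under these settings, 1983 kept their direction and side of the threshold, 421 lost it, 72 gained it and 14 changed sign, all of clusters that were not called and near 0. The average RA change of Zfp600 with Rex2 became -0.089 without shCT_0d replicate 1, -0.039 without shLOXL2_0d replicate 3 and -0.043 without shLOXL2_1d replicate 1, and was at most 0.26 without 1 array. That of Pcdhga10/Gm19774 became -0.00093 with centring, -0.059 with array weights, -0.0015 without shCT_0d replicate 1, -0.0080 without shLOXL2_1d replicate 1 and -0.0053 without the 4 high arrays, and was at most 0.064 without 1 array. That of the Pcdhac2 cluster became -0.0027 with quantile normalization, and without single arrays it was -0.0042 (shCT_0d replicate 2), -0.021 (shCT_0d replicate 3), -0.012 (shCT_1d replicate 2), -0.027 (shLOXL2_0d replicate 1) and -0.027 (shLOXL2_1d replicate 3), and at most 0.10. The causes were not tested. The number of arrays limits what could be called.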
